A study of Homo sapiens with 10 samples.

Results

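Wnt ligands, receptors and secreted inhibitors were followed in MRC5 cells, fibroblasts derived from human fetal lung, through 10 named genes. They were DKK1, DKK3, WNT5A, WNT5B, SFRP1, FZD1, FZD2, LRP6, CTNNB1 and TNFRSF19, found by matching each symbol to its Ensembl identifier. Of the 10 genes, 9 were found among the 14054 genes of the count table, and FZD2 was not analysed here. All 9 also passed the filter on low counts, and the smallest count of any of them in any library was 43. One group of 5 libraries came from MRC5 cells that received medium in which A549 cells had been kept without stretch (static medium), and the other 5 from MRC5 cells that received medium from stretched A549 cells (stretch medium). A549 is an established line from a human lung adenocarcinoma, used as a stand-in for alveolar epithelium. Both groups thus received medium from A549 cells, and cells without such medium were not analysed here. The labels give no genetic change in either line. The sample descriptions give 24 hours and the series design 6 hours, and which of these was the exposure before RNA was taken is not settled here. Libraries carry the number of their title (static 1, 3, 5, 7 and 9; stretch 2, 4, 6, 8 and 10), and no number occurs in both groups.

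Wnt proteins are lipid-modified secreted ligands that bind Frizzled receptors. With the co-receptor LRP6 or LRP5, this binding stops the breakdown of beta-catenin (CTNNB1), which enters the nucleus and switches on target genes with TCF/LEF factors, whereas WNT5A and WNT5B act mostly through routes that do not need beta-catenin. Dickkopf and secreted Frizzled-related proteins act outside the cell: DKK1 occupies LRP6 and LRP5, and SFRP1 binds Wnt ligands. In the lung, Wnt signals pass between epithelium and mesenchyme during development and repair, and the pathway is active in fibrotic lung.

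No gene of the set separated the media at an adjusted p of 0.05 in edgeR's quasi-likelihood test, and neither did any gene of the whole table (0 of 10968 genes tested, or 0%). Over the whole table DESeq2 called 275 of the 9690 genes for which it gave an adjusted p, or 2.84%. Limma-voom called 1 of 10968, and edgeR called 39 of 11070 without stretch 4. None of these fits called a gene of the set, which at such low shares says little about 9 genes. CPM is the read count scaled by the size of its library, after that size was adjusted by edgeR's TMM normalization factor. The largest fitted difference in the set was that of the inhibitor DKK1. Its mean was 53.9 ± 11.1 CPM with static medium and 72.5 ± 8.34 CPM with stretch medium (SD, n = 5 each). DKK3, a relative of DKK1, averaged 736 ± 142 and 901 ± 58.4 CPM, and the ligand WNT5A 125 ± 27.7 and 100.5 ± 10.5 CPM. These 3 genes had an unadjusted p under 0.05, which makes 3 of 9, beside 16.4% of all genes tested. Of them 2 were higher with stretch medium, beside 8.08% of all genes, and 1 was lower, beside 8.37%. The groups overlapped for each of the 9 genes, while 3.72% of all genes tested had groups that did not overlap. The median log2 fold change, stretch minus static medium, was 0.018 over the 9 genes and 0.00035 over all genes tested. In bulk RNA, fewer cells of a kind and less RNA per cell cannot be told apart.

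**Figure D1:**
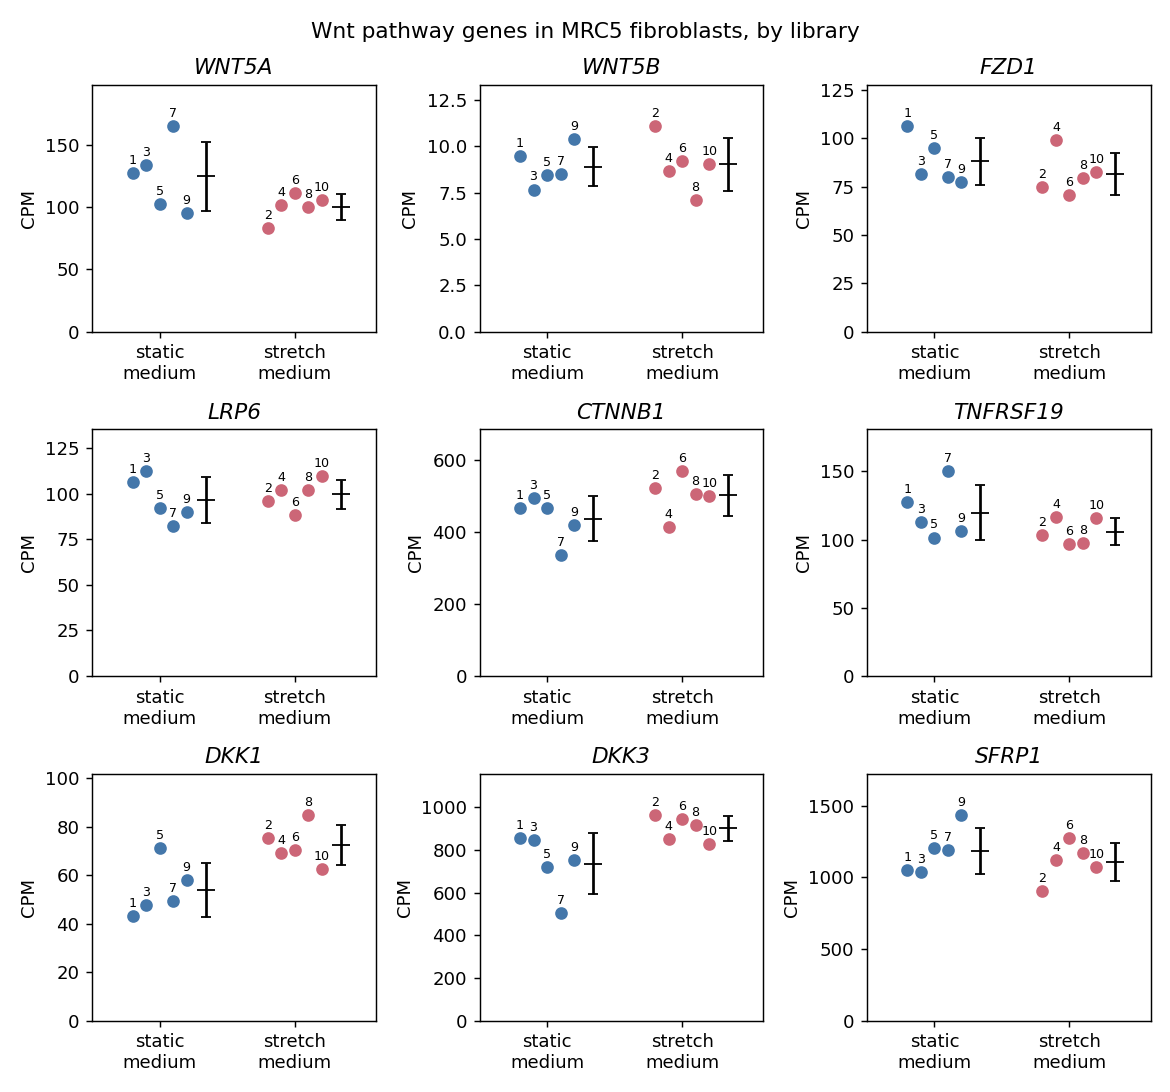
Expression of the 9 genes in CPM (vertical axes, linear and starting at 0) by medium, with 1 point per library labelled by its title number, and the mean and SD of 5 libraries as a bar with whiskers. For DKK1 the stretch libraries run from 62.5 to 84.9 CPM and only static 5, at 71.3 CPM, lies among them, and static 7 is the lowest library for DKK3, at 505 CPM, and the highest for WNT5A, at 165 CPM.

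Total counts ran from 4231653 to 8455073 per library and did not separate the media (two-sided p = 0.444, exact permutation test). Each of 10 fibroblast markers was present, with summed levels of 16200 to 18200 CPM with static and 14400 to 18900 CPM with stretch medium. Of 12 epithelial markers, 6 were in the table, at summed levels of 24.5 to 32.3 and 26.4 to 32.6 CPM. Of these 6, the epithelial cadherin CDH1 was the lowest, with at most 4 counts in any library. KRT19 was the highest, with up to 109 counts, at 9.84 to 13.8 CPM with static and 10.8 to 15 CPM with stretch medium. Of 5 endothelial markers, 4 were in the table, at 53.7 to 65.9 and 48.4 to 68.2 CPM in sum, most of it TEK. Of 5 leukocyte markers, 2 were in the table, at 193 to 209 and 181 to 232 CPM, nearly all of it CD68, which fibroblasts also express. In edgeR, 2 of the 10 fibroblast markers, COL1A1 and FN1, had an unadjusted p under 0.05, beside 16.4% of all genes tested, and 0 of the 4 epithelial, 2 endothelial and 1 leukocyte markers that could be tested. The fibroblast marker VIM was at 1580 CPM in stretch 2 and at 4060 to 5070 CPM in the static libraries.

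Among the ligands, WNT5A (ENSG00000114251; chromosome 3, 55465715 to 55490539, minus strand, GRCh38), the best known activator of the routes that do not use beta-catenin, was at 128 CPM in static 1, 134 in static 3, 103 in static 5, 165 in static 7 and 95.6 in static 9. With stretch medium it was at 83.3 CPM in stretch 2, 102 in stretch 4, 111 in stretch 6, 100.02 in stretch 8 and 106 in stretch 10. Static 1, 3 and 7 thus lay above every stretch library, while static 5 and 9 lay among them. The log2 fold change was -0.32 ± 0.14 (SE), with a 95% interval of -0.61 to -0.021, an unadjusted p of 0.037 and an adjusted p of 0.276. Without static 7 it was -0.19 (adjusted p = 0.548), and without stretch 2 it was -0.26 (adjusted p = 0.467).

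WNT5B (ENSG00000111186; chromosome 12, 1529891 to 1647243), the close relative of WNT5A, had 43 to 67 counts per library. It was at 7.66 to 10.4 CPM with static and 7.11 to 11.1 CPM with stretch medium, so that the static range lay inside the stretch range. Its fitted value was 0.018 on the log2 scale, and the interval, from -0.34 to 0.37, holds differences in either direction. WNT5A and WNT5B were 2 of only 4 ligand genes with enough counts to test, of 19 listed and 10 in the table. The others were WNT16, at 7.47 ± 0.859 and 5.56 ± 1.56 CPM, and WNT2B, at means of 2.07 and 1.59 CPM. The 6 ligand genes below the filter did not exceed 17 counts in a library, the maximum for WNT2. Of the export machinery, WLS, the carrier that brings Wnt proteins to the cell surface, averaged 463 and 452 CPM, and PORCN, the enzyme that attaches their lipid, averaged 64.5 and 57.5 CPM.

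Among the receptors, FZD1 (ENSG00000157240; chromosome 7, 91264364 to 91271326), a Frizzled of the beta-catenin route, ran from 77.4 to 106 CPM with static and from 70.9 to 99.1 CPM with stretch medium. The fitted difference was -0.11 ± 0.12, with an interval of -0.37 to 0.15. It ran from -0.19 without stretch 4 to -0.038 without static 1. LRP6 (ENSG00000070018; chromosome 12, 12116025 to 12267012), the co-receptor that DKK1 blocks, ran from 82.0 to 113 CPM and from 88.2 to 109.5 CPM, with the stretch libraries inside the static range. Its fitted difference was 0.043 (95% interval -0.19 to 0.28), and the value was -0.011 without static 7.

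CTNNB1 (ENSG00000168036; chromosome 3, 41194741 to 41260096), the gene of beta-catenin, was at 467 CPM in static 1, 493 in static 3, 467 in static 5, 335 in static 7 and 419 in static 9. With stretch medium it was at 520.0 CPM in stretch 2, 412 in stretch 4, 570 in stretch 6, 504 in stretch 8 and 498 in stretch 10. All stretch libraries but stretch 4 lay above every static library, and stretch 4 lay between static 7 and static 9. The fitted difference was 0.20 ± 0.12 on the log2 scale (95% interval -0.052 to 0.45, adjusted p = 0.419), and 0.12 without static 7. Beta-catenin is controlled mainly through the stability of the protein, which these RNA counts do not measure.

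TNFRSF19 (ENSG00000127863; chromosome 13, 23570370 to 23676104), a membrane receptor of the TNF family also called TROY and known as a target of beta-catenin, was at 101 to 150 CPM with static and 96.6 to 117 CPM with stretch medium. The top 2 libraries were static 7, at 150 CPM, and static 1, at 128 CPM, and the other static libraries lay among the stretch libraries. The fitted difference of TNFRSF19 was -0.18 ± 0.12 (95% interval -0.43 to 0.074, adjusted p = 0.474), and -0.083 without static 7.

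Among the secreted inhibitors, DKK1 (ENSG00000107984; chromosome 10, 52314296 to 52318042, plus strand) was at 43.3 CPM in static 1, 47.6 in static 3, 71.3 in static 5, 49.3 in static 7 and 58.1 in static 9. With stretch medium it was at 75.6 CPM in stretch 2, 69.3 in stretch 4, 70.4 in stretch 6, 84.9 in stretch 8 and 62.5 in stretch 10. The other 4 static libraries lay below every stretch library, and static 5 lay above stretch 4, 6 and 10. The fitted difference of DKK1 was 0.43 ± 0.14 on the log2 scale, or 1.34-fold, and its 95% interval ran from 0.13 to 0.72. Its unadjusted p of 0.0070 placed it at rank 485 of 10968 genes, and its adjusted p was 0.159 in edgeR, 0.0742 in DESeq2 and 0.147 in limma-voom. With each library left out in turn the estimate stayed between 0.36 (without static 1) and 0.55 (without static 5), and the adjusted p between 0.137 and 0.298.

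Because DKK1 had the largest fitted difference of the set and is itself known as a target of beta-catenin, the 250 bases before its RefSeq start are shown (chr10:52314031-52314280, plus strand, GRCh38.p14, from RefSeq), with capitals for matches to the motifs searched.
DKK1: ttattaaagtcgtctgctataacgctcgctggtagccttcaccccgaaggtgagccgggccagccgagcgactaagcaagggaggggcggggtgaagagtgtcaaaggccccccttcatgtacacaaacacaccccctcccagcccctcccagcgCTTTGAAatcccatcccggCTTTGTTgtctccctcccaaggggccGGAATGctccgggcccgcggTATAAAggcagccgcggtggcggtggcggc
In order, the capitals mark the TCF/LEF cores CTTTGAA and CTTTGTT, whose first bases lie 95 and 76 bases before the start, the TEAD-type site GGAATG at 50 bases and the TATA box TATAAA at 30 bases. The motifs do not overlap each other, and both strands were searched. The remaining TCF/LEF core searched, CTTTGAT, had no match in this window. Of 35116 windows of the same length before annotated starts, 3.80% held CTTTGAA, 4.5% CTTTGTT, 2.26% CTTTGAT, 11.9% GGAATG and 10.7% TATAAA. Any of the TCF/LEF cores was present in 9.97% of these windows, and at least 2 different cores in 0.581%. Windows were found for 6 of the 10 genes, 9 windows in all. Among these the TCF/LEF cores were found only in that of DKK1, beside the 9.97% of all windows with any core. These matches describe letters in a window and were not measured as binding sites.

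DKK3 (ENSG00000050165; chromosome 11, 11963106 to 12009769, minus strand) is a divergent Dickkopf that, unlike DKK1, is not an established blocker of LRP6. It was at 855 CPM in static 1, 847 in static 3, 720.4 in static 5, 505 in static 7 and 751 in static 9. With stretch medium it was at 964 CPM in stretch 2, 853 in stretch 4, 945 in stretch 6, 916 in stretch 8 and 829 in stretch 10. The top 3 libraries were stretch 2, 6 and 8, while stretch 4 and 10 lay among or just below static 1 and 3, and static 7 was far below the rest. The fitted difference of DKK3 was 0.29 ± 0.13 (95% interval 0.026 to 0.56), with an unadjusted p of 0.033 and an adjusted p of 0.267. It was 0.19 without static 7 (adjusted p = 0.458).

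SFRP1 (ENSG00000104332; chromosome 8, 41261958 to 41309497), which binds Wnt ligands outside the cell, ran from 1036 to 1436 CPM with static and from 907 to 1276 CPM with stretch medium. Static 9 was the highest library and stretch 2 the lowest. Its fitted difference was -0.094 (95% interval -0.34 to 0.15), and it was -0.015 without static 9 and -0.031 without stretch 2. The fourth gene tested from the list of secreted inhibitors, FRZB, binds Wnt ligands like SFRP1. It averaged 13.1 and 10.02 CPM, with an interval of -0.89 to 0.09 on the log2 scale. Of the 13 genes of that list, 6 were in the table and 4 were tested. Of these 4, DKK1 and DKK3 were higher with stretch medium at an unadjusted p under 0.05, beside 8.08% of all genes tested. SFRP1 and FRZB had fitted values below 0.

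**Figure D2:**
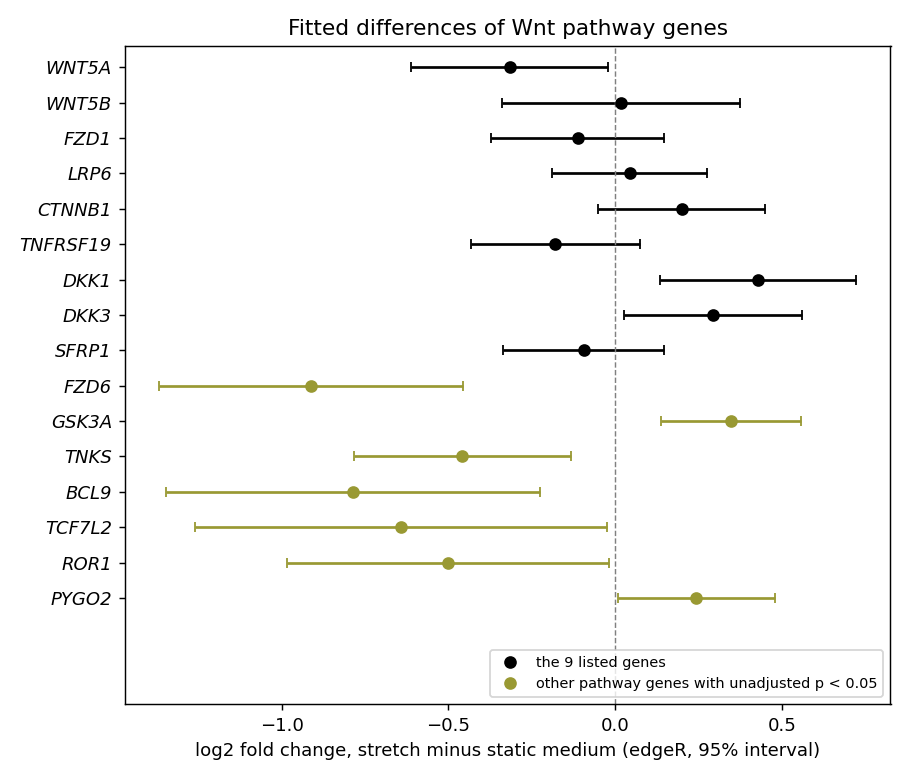
Log2 fold changes (horizontal axis, stretch minus static medium) with 95% intervals from edgeR, for the 9 genes (black) and for the other pathway genes with an unadjusted p under 0.05 (olive). The intervals of DKK1 (0.13 to 0.72), DKK3 and WNT5A leave out 0 by unadjusted limits, and FZD6 has the most negative value, -0.91.

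The SD of log2 CPM was larger with static medium for 8 of the 9 genes, WNT5B being the exception, while over all genes tested this held for 51.4%. For DKK3 it was 0.309 with static and 0.0942 with stretch medium, for WNT5A 0.314 and 0.158, and for TNFRSF19 0.229 and 0.131. For SFRP1 it was nearly equal, at 0.19 and 0.182, and so it was for FZD1, at 0.195 and 0.184. Without static 7 it was larger for 7 of the 9 genes, beside 42.2% of all genes tested. This difference in spread was not tested, and the 9 genes share the same libraries, so they are not separate observations of it. Static 7 was the highest or lowest of the 10 libraries for 5 of the 9 genes, the highest for WNT5A and TNFRSF19 and the lowest for LRP6, CTNNB1 and DKK3. It was also at an extreme for 38.8% of all genes tested, the most of any library, and stretch 8 was the least often so, at 11%. For WNT5A, DKK3, CTNNB1 and TNFRSF19, leaving out static 7 gave the fitted value nearest to 0 of all 10 such fits. Without stretch 2, the library with low VIM, the fitted values were 0.41 for DKK1, 0.27 for DKK3, 0.19 for CTNNB1, 0.056 for LRP6, -0.084 for FZD1, -0.17 for TNFRSF19 and -0.062 for WNT5B.

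**Figure D3:**
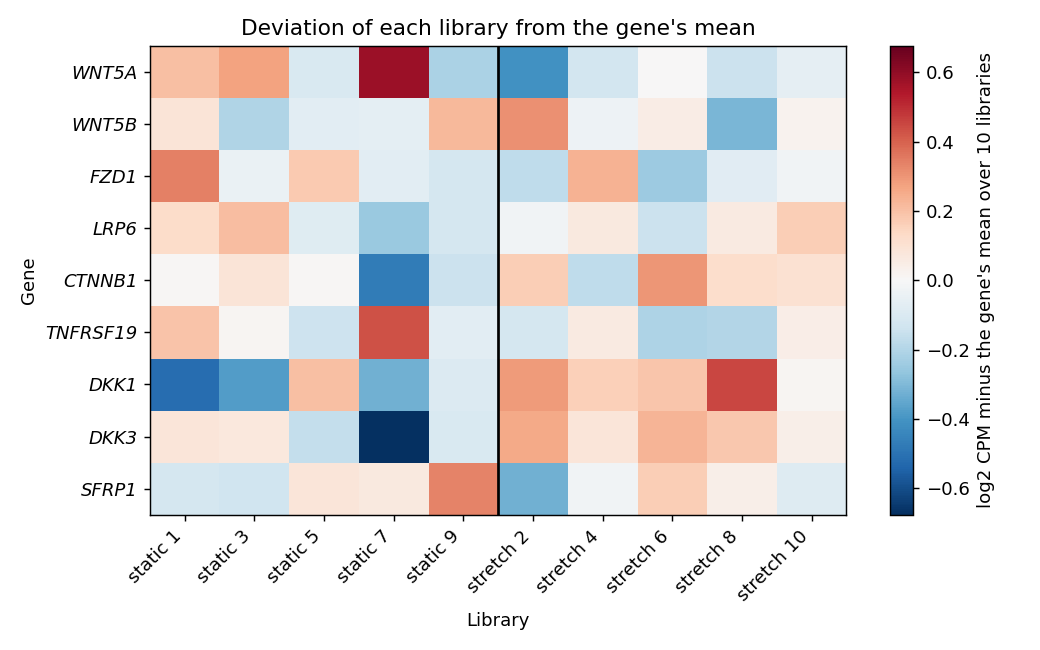
Log2 CPM of each gene (rows) in each library (columns) minus the gene's mean over 10 libraries, red above and blue below, with a line between static and stretch libraries. Static 7 shows high WNT5A and TNFRSF19 with low DKK3 and CTNNB1, and the DKK1 row is blue in 4 static libraries and red or near white in the stretch libraries.

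**Figure D4:**
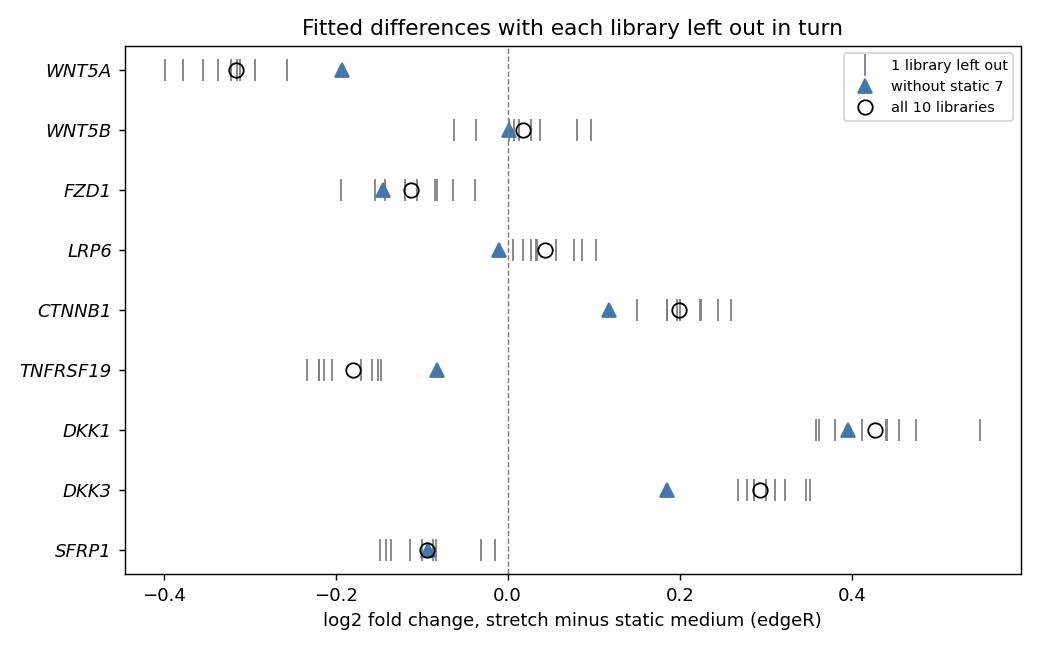
Fitted log2 fold changes (horizontal axis) of the 9 genes over all 10 libraries (open circles), without static 7 (triangles) and without each other library (ticks). DKK1 stays between 0.36 and 0.55, and without static 7 the values of WNT5A, at -0.19, and DKK3, at 0.19, move toward 0.

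In the wider pathway, 106 genes were listed, 74 were in the table and 59 were tested, and their median log2 fold change was -0.0011. Of the 59, 29 had fitted values above 0 and 30 below. None passed the adjusted threshold in edgeR or limma-voom. At an unadjusted p under 0.05 there were 10 of 59, or 16.9%, beside the 16.4% of all genes tested. They were DKK1, DKK3, WNT5A and 7 others. DESeq2 gave an adjusted p for 51 of the 59 and called 2 of them, FZD6 and GSK3A, beside 2.84% of all genes for which it gave an adjusted p.

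FZD6, a Frizzled receptor that acts mainly in planar cell polarity and can restrain the beta-catenin route, was at 59.3 CPM in static 1, 82.5 in static 3, 83.0 in static 5, 128 in static 7 and 59.9 in static 9. With stretch medium it was at 40.5 CPM in stretch 2, 50.8 in stretch 4, 28.9 in stretch 6, 39.7 in stretch 8 and 61.3 in stretch 10. Stretch 10 lay above static 1 and 9, and all other stretch libraries lay below every static library. The log2 fold change of FZD6 was -0.91 ± 0.22, the largest of the 59 in size, with an adjusted p of 0.101 in edgeR, 0.120 in limma-voom and 0.00723 in DESeq2. Without static 7 it was -0.70. Of the 12 receptor genes tested, 8 had values above 0 and 4 below, and 2, FZD6 and ROR1, had an unadjusted p under 0.05, a share of 16.7% beside 16.4% of all genes tested. ROR1, a receptor tyrosine kinase that binds WNT5A, averaged 9.04 ± 2.27 and 6.42 ± 1.88 CPM, and its relative ROR2 8.11 and 8.002 CPM. LRP5, the partner of LRP6, averaged 24.6 and 26.2 CPM, and FZD7 41.2 and 44.6 CPM.

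GSK3A, a kinase that marks beta-catenin for breakdown, was the 1 pathway gene of 59 whose groups did not overlap, beside 3.72% of all genes tested. It was at 167, 144, 151, 132 and 139.6 CPM in static 1, 3, 5, 7 and 9 and at 183, 180.3, 201, 169.8 and 198 CPM in stretch 2, 4, 6, 8 and 10. Its log2 fold change was 0.35 ± 0.099, with an adjusted p of 0.129 in edgeR and 0.0286 in DESeq2. GSK3B, the paralog with the same role, averaged 59.5 and 59.9 CPM, with an interval of -0.24 to 0.26. TNKS, a polymerase that promotes the breakdown of the scaffold protein axin, averaged 35.1 ± 4.74 and 25.6 ± 5.43 CPM, with stretch 4 among the static libraries. Of 10 genes tested from a list of the destruction complex and other regulators of beta-catenin, 6 lay above and 4 below 0. The 4 were TNKS, TNKS2, APC and CTNNBIP1, of which only APC is a part of the complex itself.

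Among 11 genes that carry the signal from the receptor to the nucleus, 5 lay above and 6 below 0, and 3 had an unadjusted p under 0.05, or 27.3% beside 16.4% of all genes tested. BCL9, a coactivator that binds beta-catenin, averaged 6.37 ± 1.66 and 3.74 ± 1.49 CPM. TCF7L2, one of the TCF/LEF factors, averaged 3.35 ± 0.756 and 2.16 ± 0.880 CPM, from 5 to 38 counts per library. PYGO2, which binds BCL9, averaged 47.1 ± 3.95 and 55.7 ± 5.05 CPM. The adjusted p was 0.168 for BCL9, 0.286 for TCF7L2 and 0.289 for PYGO2.

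Of 15 common targets of beta-catenin, 6 could be tested, and 3 lay above and 3 below 0, with a median of 0.077. Of the 6, only DKK1 had an unadjusted p under 0.05, a share of 16.7% beside 16.4% of all genes tested. AXIN2, a widely used readout of the pathway, did not exceed 7 counts in a library, with 25 counts over the static and 19 over the stretch libraries, below the filter of the main test. LEF1 averaged 19.3 and 16.9 CPM, with an interval of -0.71 to 0.30. MYC averaged 15.1 and 17.0 CPM, and CCND1, the gene of cyclin D1, 986 ± 96.2 and 1117 ± 105 CPM, with an interval of -0.031 to 0.39. FZD6 and ROR1, which had an unadjusted p under 0.05, were listed as receptors only and are not counted among the planar polarity genes. In edgeR, 0 of the 9 genes on the planar polarity list and 0 of the 5 membrane regulators tested had an unadjusted p under 0.05. The share over all genes tested was 16.4%. Limma-voom called 0 of these polarity and membrane genes. DESeq2 called 0 of the 10 for which it gave an adjusted p, beside 2.84% of all genes with one.

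Among the genes whose log2 CPM followed that of DKK1 most closely over the 10 libraries, of all genes tested, were DLL4 (Pearson's r = 0.956), MVK (0.946), CHI3L1 (0.917) and GMEB2 (0.916). They are named for likeness alone. The points share the 10 libraries, their depth and the difference between media, and these r are among the highest over the 10968 genes tested, so r is given as a description.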

How the data were processed

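RNA from 10 MRC5 libraries was prepared with Trizol and the Ion AmpliSeq Transcriptome kit, a multiplex PCR of short targets in each transcript, per the labels' protocols. The submitters' processing notes name fastp 0.20.1, Salmon 1.9 and hg38/GRCh38; their roles, and the annotation, strand use and rounding, were not given by these sources. The values deposited by the authors are whole-number counts per Ensembl gene in 1 table, and the fewest libraries in which any of its genes is above 0 is 5. Counts are of PCR-amplified reads, which are not independent molecules, and levels are not compared between genes. A floor of 3 counts, which covers counting error only, was 0.355 to 0.709 CPM when scaled by total counts alone, without the TMM factor. The 95% intervals are from the fit and rest on the spread between libraries.

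Columns were matched to samples by title number, and 13831 identifiers to symbols. Positions are from GENCODE release 29. WNT5B overlaps FBXL14 and CTNNB1 overlaps ULK4 on the opposite strand. DKK1 and WNT5A overlap antisense genes, and LRP6 overlaps BCL2L14 on the opposite strand, none of which is analysed here. LRP6 and SFRP1 also overlap pseudogenes and small RNA genes, and SFRP1 overlaps MIR548AO and AC104393.1 on its own strand. Without stated strand use, reads from opposite strands cannot be told apart. Pairs of libraries within a group had a chi-square of 5.75 to 23 per degree of freedom between their counts, above counting noise. Since the labels name no separate cultures, p-values measure only how these libraries spread, and that spread may be technical.

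The test was edgeR 4.0.16 in R 4.3.3 (filterByExpr with minimum count 10 and minimum total 15, TMM, quasi-likelihood test). Benjamini-Hochberg adjustment ran over 10968 genes, with a threshold of 0.05. The code was also run on simulated counts, as a check of the code alone. The changes simulated there were larger than any fitted in the set, so that run does not cover differences of this size. Log2 CPM used a prior count of 2. DESeq2 1.42.0 and limma-voom (limma 3.58.1), other scalings and filters, the title number as a covariate and leaving out each library were alternatives. Totals were compared by an exact two-sided permutation test. The rule for named genes took the 10 genes, every other pathway gene with an unadjusted p under 0.05, and the 5 genes most like the member with the smallest p. An item that this rule takes is not reported here. WNT16, WNT2B, WNT2, WLS, PORCN, ROR2, LRP5, FZD7, FRZB, GSK3B, TNKS2, APC, CTNNBIP1, AXIN2, LEF1, MYC, CCND1 and VIM fall outside it and were chosen after their values were seen. The same holds for COL1A1, FN1, CDH1, KRT19, TEK and CD68, which were picked out by name from the marker lists. The genes and lists were chosen with earlier results of these data known.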

Additional observations from a re-analysis of the deposited data

Results flagged for a closer look

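VIM, the gene of the intermediate filament vimentin, was at 1580 CPM in stretch 2, while the other 4 stretch libraries lay between 4090 and 4330 CPM. The gap to the nearest library was 0.914 of the range of the group. It was the 1 such value in 36 groups of libraries examined, which covered the 9 Wnt genes, the 7 other named pathway genes, total counts and VIM in each medium, and chance gives about 1 in 20. VIM was examined after its values were seen.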

How the results depend on the processing

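None of the 9 genes passed the adjusted threshold under any of the 7 other settings or with any library left out, so 0 were called throughout. Over the 7 other settings the log2 fold change of DKK1 ran from 0.42 to 0.44, that of DKK3 from 0.29 to 0.34 and that of WNT5A from -0.32 to -0.29, and no gene of the 9 changed sign. With a library left out, WNT5B was at -0.062 without stretch 2, -0.037 without static 3 and 0.097 without stretch 8, and LRP6 ran from -0.011 without static 7 to 0.10 without static 3. The number of genes called over the whole table was 275 in DESeq2, or 2.84% of those with an adjusted p, and 1 in limma-voom. It was 39 without stretch 4, 2 without stretch 6, 1 without stretch 10 and 0 without each other library. Of the 59 pathway genes, DESeq2 called 2, and 0 were called with any library left out in edgeR. The difference in mean total counts, stretch minus static, ran from -1244100 to -282910 with a library left out, an alternative chosen after seeing the data. The cause of these shifts was not tested. No paired analysis was run, because the groups share no replicate number that would name pairs. With 43 to 67 counts per library, depth limits WNT5B, and most ligands and AXIN2 fell below the filter.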
